A study of Homo sapiens with 6 samples.

Results

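The 30 genes described here are the transcription factor NRF2 (gene NFE2L2), its repressor KEAP1, its partner MAFG and 27 genes that NRF2 is known to switch on. They were taken from a list of symbols drawn up with earlier results of these data known. All 30 were matched among the 61552 genes of the tables. RNA was sequenced from NCI-H520, a human cell line of squamous lung cancer labelled as wild type, after 48 h with cisplatin at 2 µM or with phosphate-buffered saline (PBS). Cisplatin is a platinum compound that forms crosslinks in DNA. Each group held 3 libraries, and every library came from the same line in serum-containing medium. Whether the libraries of a group come from separate cultures is not stated in the labels. Each p-value therefore reflects the spread between these libraries alone, which may be technical.

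NRF2 is held in the cytoplasm by KEAP1, an adaptor that hands it to the CUL3 ubiquitin ligase for destruction. When reactive compounds modify KEAP1, NRF2 accumulates, pairs with a small MAF protein such as MAFG and binds antioxidant response elements, short DNA motifs near its targets. The targets make glutathione, recycle thioredoxin, supply NADPH, store iron, break down haem and reduce quinones and aldehydes. In squamous lung cancer the pathway is known for mutations of NFE2L2 or KEAP1 that keep it switched on. The sequence of these genes in NCI-H520 was not examined here.

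Expected counts summed to between 9925337 and 16724269 in the cisplatin libraries and between 9121180 and 15589875 in the PBS libraries. Mitochondrial genes took 3.26% to 4.13% of the counts under cisplatin and 4.15% to 6.05% under PBS. Of 7 squamous markers only SOX2, KRT5 and KRT6A passed the low-count filter, whereas TP63, KRT14, DSG3 and PKP1 had at most 5 counts in any library. The list summed to 149 to 167 TPM under cisplatin and 155 to 187 TPM under PBS. Most of this was SOX2, with 144.8 to 162.5 TPM under cisplatin and 134.9 to 181.7 TPM under PBS. KRT6A reached 36.3 TPM in PBS replicate 1, from 15 counts. All 5 epithelial markers were present, with summed levels of 2371 to 2410 TPM under cisplatin and 2035 to 2324 TPM under PBS. Of the 5, 4 rose and EPCAM did not pass (80% called, beside 38.2% of all genes). After a correction for transcript length, described at the end, KRT18 was not called (log2 fold change 0.14, edgeR adjusted p = 0.103). EPCAM was then called lower (-0.25, 0.0109). Most markers of other cell types were sparse, apart from the neuroendocrine marker NCAM1 and the fibroblast marker COL1A1. NCAM1 stood at 5.64 to 7.06 TPM under cisplatin and 7.98 to 12.1 TPM under PBS. That was above the squamous marker KRT5, with 2.61 to 3.17 TPM under cisplatin and 2.71 to 4.2 TPM under PBS. The summed level was 0.40 to 0.59 TPM under cisplatin and 1.08 to 1.15 TPM under PBS for 4 immune genes, among them PTPRC and CD3E at 0 counts in all libraries. It was 0.02 to 0.40 TPM under cisplatin and 0.01 to 0.13 TPM under PBS for 3 endothelial genes. For 4 fibroblast genes, of which only COL1A1 passed the filter, it was 6.24 to 6.71 TPM under cisplatin and 4.26 to 5.89 TPM under PBS, and for 4 neuroendocrine genes 6.91 to 8.74 and 9.97 to 14.1 TPM in the same order of groups. COL1A1 was called higher (0.82 ± 0.14, edgeR adjusted p = 6.9e-04; called in 15 of 16 alternatives) and the immune marker CD14 lower (-0.98 ± 0.36, 0.0467; called in 5 of 15). The part of these markers in the results was not tested. In RNA from a whole culture, fewer cells expressing a gene and less of its RNA per cell cannot be told apart.

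Many genes of the pathway stood high in these cells already without the drug. Levels of different genes are compared as TPM, which counts transcripts on a fixed common total after division by transcript length. In PBS cells the peroxide-reducing enzyme PRDX1 had 6665 ± 342 TPM (SD, n = 3) and ranked 12 of the 15063 genes tested. The ferritin heavy chain FTH1, the iron-storing subunit with ferroxidase activity, had 5217 ± 181 TPM and ranked 16. The aldo-keto reductases AKR1C1, AKR1C3 and AKR1C2, which reduce steroids and aldehydes, stood at 916 ± 9.48, 689 ± 35.8 and 632 ± 40.3 TPM, and the quinone reductase NQO1 at 651 ± 19.1 TPM. The ranges of AKR1C3, NQO1 and AKR1C2 over the PBS libraries overlapped. At the low end of the list were the glutathione-synthesis subunit GCLM (13.1 ± 3.11 TPM), haem oxygenase HMOX1 (10.4 ± 1.24 TPM) and the aldo-keto reductase AKR1B10. AKR1B10, with 0.28 to 0.67 TPM, reached only the 4.6th percentile of the genes tested. NFE2L2 itself had 36.7 ± 4.77 TPM and KEAP1 81.5 ± 11.8 TPM, at percentiles 77.1 and 89.0.

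**Figure D1:**
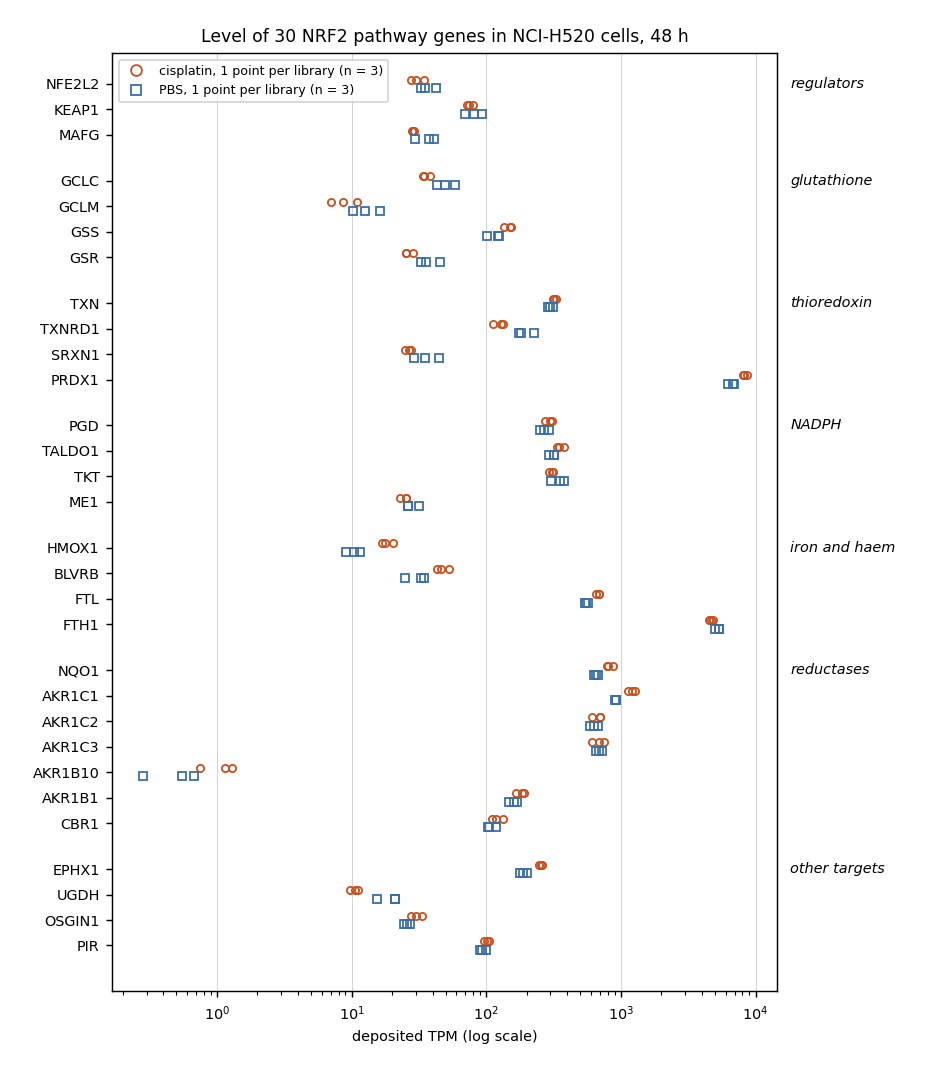
Deposited TPM of the 30 genes on a log axis, 1 symbol per library, with 3 cisplatin libraries (circles) above 3 PBS libraries (squares) in each row. Levels span from below 1 TPM for AKR1B10 to a mean of 8303 TPM under cisplatin for PRDX1, and differences between groups are small beside the differences between genes.

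Under cisplatin the pathway did not move as a block. All 30 genes passed the low-count filter, and 13 rose, 5 fell and 12 did not pass. A gene passed when its p from the quasi-likelihood test of edgeR, adjusted by Benjamini-Hochberg over all genes, was under 0.05. The 18 called are 60% of the members, beside 38.2% of all 15063 genes tested. Of all genes 18.9% rose and 19.3% fell. As the members were listed with earlier results of these data known, the 60% is a description alone. The median log2 fold change was 0.17 over the members, while that over all genes lay at -0.000347. Every cisplatin library lay above every PBS library in 16 members and below in 6, and the groups did not overlap in 49.7% of all genes. HMOX1, with 1.86-fold, was the only member other than the sparse AKR1B10 to rise by over 1.7-fold. Genes of haem breakdown and aldehyde or quinone reduction were among those that rose. The rate-limiting glutathione enzyme GCLC, glutathione reductase GSR and thioredoxin reductase TXNRD1 were among those that fell. After a correction for transcript length, described at the end, 9 members were higher and 6 lower, beside 33.9% of all genes, called in either direction. The median log2 fold change was then 0.02 over the members and -0.01 over all genes.

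**Figure D2:**
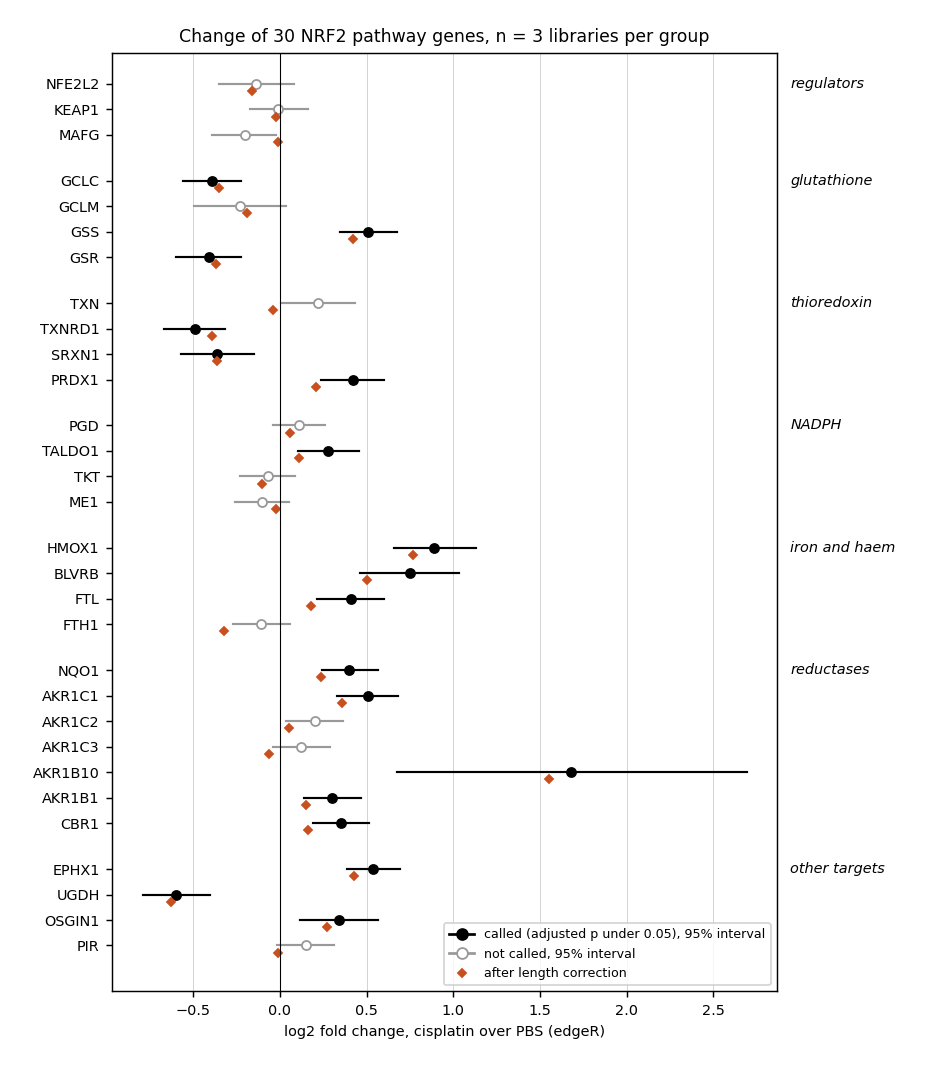
Log2 fold change of each member, cisplatin over PBS, from edgeR with its 95% interval (n = 3 libraries per group; black, adjusted p under 0.05; grey, not passed), and the value after length correction (diamonds). The 5 members that fell keep their side of 0 after the correction, and the 13 that rose do so too, each closer to 0 than before it.

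The core of the antioxidant response element, written TGACNNNGC with N for any base, was searched on both strands in the 250 bases before each gene start of RefSeq (GRCh38.p14). Promoters were held for 24 members; AKR1B10, FTH1, GSR, GSS, HMOX1 and PRDX1 were not in the table. At least 1 listed start carried the core in 7 of the 24 members (29.2%), in 16 of 76 other pathway genes (21.1%) and in 1755 of 11008 genes tested (15.9%). A match describes letters, not a bound site. The 5 windows below are those of members called in the comparison and of GCLM, each read 5′ to 3′ along the gene's strand with the core in capitals.
TXNRD1, first start: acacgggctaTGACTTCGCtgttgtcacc
TXNRD1, inner start: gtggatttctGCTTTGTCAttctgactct
GCLM: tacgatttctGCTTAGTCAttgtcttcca
EPHX1: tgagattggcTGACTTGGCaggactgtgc
CBR1: tgcgggttctGCAAAGTCAggctagctgg
The TXNRD1 windows lie at chr12:104215670-104215698 and chr12:104286920-104286948 on the plus strand, 1 upstream of the gene and 1 touching an exon in GENCODE 29. The GCLM window is chr1:93909446-93909474 on the minus strand and touches an annotated exon. The EPHX1 window, chr1:225825266-225825294, is intronic, before an inner start, and that of CBR1, chr21:36069855-36069883, is upstream of the gene; both are on the plus strand. In TXNRD1's inner start, GCLM and CBR1 the core reads on the opposite strand. Of these genes EPHX1 and CBR1 rose, TXNRD1 fell and GCLM did not pass, so genes with the core were found on both sides. KEAP1 with 2 cores, ME1 and PGD with 1 each also carried it, and none of the 3 passed.

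None of the 3 regulators among the members passed the test. NFE2L2 (chromosome 2, 177227595 to 177392697, GRCh38) had 61.4, 69.7 and 53.9 CPM in the cisplatin libraries, against 61.7, 70.0 and 70.5 CPM in the PBS libraries. CPM are counts scaled to a common library total with edgeR's TMM factors, and the groups overlapped. The log2 fold change was -0.14 ± 0.10 (SE, edgeR adjusted p = 0.308), with a 95% interval of the fold from 0.783 to 1.06. KEAP1 had 156 ± 4.87 CPM under cisplatin and 157 ± 12.3 CPM under PBS, a fold between 0.886 and 1.12. MAFG had 128, 131 and 125 CPM under cisplatin, against 160, 130 and 154 CPM under PBS, where replicate 2 fell among the cisplatin values (-0.20 ± 0.08, adjusted p = 0.0745). Without PBS replicate 2, MAFG passed (-0.29, adjusted p = 0.00758), and it stood at -0.01 after the length correction.

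Of 14 listed partners and regulators of NRF2 outside the members, 1 rose and 5 fell, and the median log2 fold change was -0.27. The share called was 42.9%, beside 38.2% of all genes. Over all lists of other pathway genes 18 of 88 tested rose and 20 fell (43.2%), also near that background. SQSTM1, the autophagy receptor p62 that competes for KEAP1, rose by 0.35 ± 0.07, to 327 ± 8.53 CPM under cisplatin, against 258 ± 17.9 CPM under PBS (edgeR adjusted p = 0.00328). CUL3, the ligase scaffold that KEAP1 serves, fell by 0.45 ± 0.08, with 71.8, 79.9 and 85.9 CPM under cisplatin and 107, 110 and 107 CPM under PBS. GSK3B, a kinase that marks NRF2 for another ligase, fell by 0.33, and NFE2L3, a related factor, fell by 0.49. On log2(TPM + 1) limma called none of these 4, with adjusted p between 0.121 and 0.300. SQSTM1 shares 20.7% of its exonic bases with MRNIP on the opposite strand, which had a log2 fold change of -0.00.

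In the glutathione arm 1 of 4 members rose and 2 fell (75% called, beside 38.2% of all genes). GSS, glutathione synthetase, the enzyme of the last step (chromosome 20, 34928433 to 34956027), had 205, 217 and 199 CPM in cisplatin cells, against 157, 139 and 140 CPM in PBS cells. Its log2 fold change was 0.51 ± 0.08 (edgeR adjusted p = 3.5e-04). GCLC, the catalytic subunit of the first and rate-limiting step (chromosome 6, 53497341 to 53616970), had 87.6, 98.8 and 88.4 CPM under cisplatin, against 119, 116 and 126 CPM under PBS. GCLC fell by 0.39 ± 0.08 (adjusted p = 0.00201). The groups did not overlap in either gene, and they moved in opposite directions: the ratio of GSS to GCLC in TPM was 3.93 to 4.47 under cisplatin and 2.09 to 2.52 under PBS. After the length correction the log2 fold change was 0.42 for GSS and -0.35 for GCLC.

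GSR, the reductase that regenerates glutathione with NADPH (chromosome 8, 30678061 to 30727999), fell by 0.41 ± 0.09, with 72.1, 64.4 and 68.4 CPM under cisplatin and 89.2, 83.7 and 99.5 CPM under PBS (edgeR adjusted p = 0.00277). GCLM, the modifier subunit that lowers the feedback inhibition of GCLC, had 22.0, 28.6 and 20.7 CPM under cisplatin and 26.0, 29.5 and 27.7 CPM under PBS. Cisplatin replicate 2 lay within the PBS range, and the change did not pass (-0.23 ± 0.12, adjusted p = 0.154). Without that library GCLM passed (-0.38, adjusted p = 0.0244).

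Of 15 other glutathione genes listed, 14 were tested, 2 rose and 3 fell (35.7% called, beside 38.2% of all genes). GGT7, of the gamma-glutamyltransferase family, rose by 0.72 ± 0.11, to 23.9 ± 0.551 CPM under cisplatin, against 14.5 ± 1.37 CPM under PBS (edgeR adjusted p = 3.3e-04). Glutaredoxin GLRX, which removes glutathione from protein thiols, had 7.67, 6.68 and 8.35 CPM under cisplatin and 3.02, 5.06 and 2.58 CPM under PBS, a rise of 1.07 ± 0.23. Both chains of the cystine importer fell: SLC3A2 by 0.33 ± 0.08 (602 ± 17.2 CPM under cisplatin, 755 ± 56.1 CPM under PBS) and SLC7A11 by 0.35 ± 0.10 (45.6 ± 4.61 CPM under cisplatin, 57.9 ± 6.67 CPM under PBS; edgeR adjusted p = 0.0189). The call of SLC7A11, with a mean transcript length of 8984 bases in PBS cells, did not hold after the length correction (0.03, adjusted p = 0.815), without PBS replicate 2 (-0.25, 0.0665) or without cisplatin replicate 1 (-0.28, 0.0914). Limma on log2(TPM + 1) did not call SLC7A11 either (-0.41, adjusted p = 0.0784). CHAC1, which degrades glutathione, fell by 0.40 (adjusted p = 0.0307) but was called in 8 of 16 alternatives, with adjusted p between 0.00701 and 0.131. Leaving out any library except cisplatin replicate 2 ended the CHAC1 call (0.0536 to 0.131).

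In the thioredoxin arm PRDX1 rose while TXNRD1 and SRXN1 fell (75% of 4 members called, beside 38.2% of all genes). PRDX1, which reduces hydrogen peroxide (chromosome 1, 45511036 to 45523047), had 5027, 4866 and 5035 CPM under cisplatin, against 3694, 4062 and 3407 CPM under PBS. Its log2 fold change was 0.42 ± 0.08 (edgeR adjusted p = 0.00208). MMACHC on the opposite strand covers 24.9% of its exonic bases and had 87.9 CPM under cisplatin and 89.2 CPM under PBS. TXNRD1, the selenoenzyme that recharges thioredoxin (chromosome 12, 104215779 to 104350305), had 425, 423 and 362 CPM under cisplatin, against 548, 556 and 596 CPM under PBS. TXNRD1 fell by 0.49 ± 0.08 (adjusted p = 6.6e-04), and its groups did not overlap.

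SRXN1, sulfiredoxin, which repairs overoxidised peroxiredoxins, had 58.2, 56.4 and 54.7 CPM under cisplatin, against 74.1, 62.3 and 80.7 CPM under PBS (-0.36 ± 0.10, edgeR adjusted p = 0.0117). On log2(TPM + 1) limma did not call it (adjusted p = 0.0722). Thioredoxin itself, TXN, had 126 ± 9.15 CPM under cisplatin and 109 ± 14.7 CPM under PBS (0.22 ± 0.10, adjusted p = 0.0977), and it stood at -0.04 after the length correction. Without PBS replicate 1 it passed (0.31, adjusted p = 0.0433). The ratio of TXN to TXNRD1 in TPM was 2.33 to 2.95 in cisplatin cells and 1.27 to 1.82 in PBS cells. TXNRD1 stood at -0.39 after the length correction.

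Of 16 other thioredoxin system genes, 6 rose and 0 fell in edgeR's test, and the median log2 fold change was 0.15. The share called, 37.5%, was near the 38.2% of all genes. At an unadjusted p under 0.05 the number that fell was also 0, and it was 0 with DESeq2, with limma-voom and with limma on log2(TPM + 1). After the length correction 2 were called lower, the methionine sulfoxide reductase MSRA and TXNDC17. SESN3, a sestrin, rose by 0.68 ± 0.11, with 66.6, 72.2 and 68.0 CPM under cisplatin and 37.9, 51.6 and 39.0 CPM under PBS (edgeR adjusted p = 6.2e-04). The methionine sulfoxide reductase MSRB1 rose by 0.48, and TXNIP, which binds and inhibits thioredoxin, by 0.37, to 176 ± 2.74 CPM under cisplatin, against 136 ± 5.73 CPM under PBS. On log2(TPM + 1) limma did not call TXNIP (0.28, adjusted p = 0.107). The peroxiredoxin family, singled out after its values were seen, was uneven: PRDX2, PRDX5 and PRDX6 rose by 0.41, 0.31 and 0.39, and PRDX3 and PRDX4 did not pass (-0.06 and 0.18). After the length correction PRDX5 was no longer called (0.07, adjusted p = 0.438), and PRDX2 and PRDX6 stood at 0.20 and 0.24.

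In the NADPH arm 1 of 4 members rose and none fell (25% called, beside 38.2% of all genes). TALDO1, the transaldolase of the pentose phosphate pathway (chromosome 11, 747329 to 765024), had 273, 309 and 298 CPM under cisplatin, against 262, 240 and 223 CPM under PBS. TALDO1 rose by 0.28 ± 0.08 (edgeR adjusted p = 0.0163). Leaving out cisplatin replicate 2 (0.25, adjusted p = 0.0674) or cisplatin replicate 3 (0.27, 0.0507) ended the call, as did the length correction (0.11, 0.218). Limma on log2(TPM + 1) did not call TALDO1 either (0.18, adjusted p = 0.127). PGD, which makes NADPH from 6-phosphogluconate, had 490 ± 22.9 CPM under cisplatin and 454 ± 10.6 CPM under PBS, and its fold lay between 0.972 and 1.2. Transketolase TKT had 569 ± 5.11 and 598 ± 41.9 CPM in cisplatin and PBS cells (fold 0.852 to 1.06). Malic enzyme ME1 had 71.8 ± 2.56 CPM under cisplatin and 77.0 ± 1.42 CPM under PBS (fold 0.835 to 1.04).

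Of 15 other NADPH genes, 3 rose and 5 fell (53.3% called, beside 38.2% of all genes). PGLS, the lactonase of the pentose phosphate pathway, rose by 0.52 ± 0.11 (edgeR adjusted p = 0.00324), or 0.32 after the length correction. RPIA, the isomerase of the non-oxidative branch, fell by 0.56 ± 0.12, to 13.7 ± 1.73 CPM under cisplatin, against 20.1 ± 1.10 CPM under PBS. The one-carbon enzyme MTHFD1 and the mitochondrial NAD kinase NADK2 fell by 0.44 and 0.56. On log2(TPM + 1) limma did not call MTHFD1 (-0.21, adjusted p = 0.125). IDH2, the mitochondrial isocitrate dehydrogenase, rose by 0.20 (adjusted p = 0.0415). Its call held in 7 of 16 alternatives and was lost without each library except PBS replicate 1, with adjusted p from 0.0628 to 0.180.

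In the haem and iron arm 3 of 4 members rose (75% called, beside 38.2% of all genes). HMOX1, which opens the haem ring and frees its iron (chromosome 22, 35380361 to 35394214), had 20.5, 21.1 and 20.4 CPM under cisplatin, against 11.9, 10.5 and 11.1 CPM under PBS. The groups were far apart, and the log2 fold change of 0.89 ± 0.11 had the smallest adjusted p among the members (edgeR adjusted p = 9.2e-05). BLVRB, a biliverdin and flavin reductase (chromosome 19, 40447765 to 40465840), had 23.1, 20.4 and 20.1 CPM under cisplatin, against 15.2, 10.9 and 12.3 CPM under PBS (0.75 ± 0.13, adjusted p = 0.00104).

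FTL, the ferritin light chain (chromosome 19, 48965301 to 48966878), had 334, 356 and 377 CPM under cisplatin, against 281, 289 and 235 CPM under PBS (0.41 ± 0.09, edgeR adjusted p = 0.00349). The heavy chain FTH1 (chromosome 11, 61959718 to 61967660) had 2560, 2522 and 2623 CPM under cisplatin and 2864, 2865 and 2573 CPM under PBS, overlapping groups that did not pass (-0.11 ± 0.08, adjusted p = 0.285). After the length correction FTH1 was called lower (-0.32, adjusted p = 0.00121). There were 14.1, 15.3 and 14.4 FTL transcripts per 100 of FTH1 under cisplatin and 10.3, 11.3 and 10.2 under PBS, in TPM. The ferritin genes have many processed copies. The 25 pseudogenes named after FTH1 held 0.322% to 0.367% of its counts under cisplatin and 0.255% to 0.411% under PBS, and BEST1 on the opposite strand, over 62.4% of FTH1's exonic bases, had 6.41 CPM under cisplatin and 5.99 CPM under PBS.

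Of 18 other iron and haem genes, 17 were tested, 2 rose and 6 fell (47.1% called, beside 38.2% of all genes). SLC48A1, which exports haem from lysosomes into the cytosol, rose by 0.51 ± 0.09, to 65.5 ± 2.36 CPM under cisplatin, against 46.2 ± 3.85 CPM under PBS (edgeR adjusted p = 7.6e-04; limma on log2(TPM + 1), adjusted p = 0.0742). The transferrin receptor, an endosomal iron reductase and an iron chaperone were among those that fell. The transferrin receptor TFRC had 394, 387 and 371 CPM under cisplatin, against 572, 553 and 649 CPM under PBS (-0.62 ± 0.08, adjusted p = 1.2e-04). STEAP3, the endosomal ferrireductase of the transferrin cycle, fell to 6.01 ± 0.271 CPM under cisplatin, against 14.6 ± 1.94 CPM under PBS, a log2 fold change of -1.27 ± 0.14. The iron chaperone PCBP1 fell by 0.47 ± 0.07, with PCBP1-AS1 on the opposite strand over 52.2% of its exonic bases. PCBP1-AS1 had a log2 fold change of the same sign, -0.39, with 19.8 CPM under cisplatin and 26.2 CPM under PBS, and its part in the PCBP1 counts was not tested. There were 7.15 to 8.34 FTL transcripts per TFRC transcript in cisplatin cells and 3.06 to 4.39 in PBS cells, in TPM. This ratio is not corrected for the length trend. After the length correction the log2 fold change was 0.18 for FTL and -0.43 for TFRC. BLVRA, the main biliverdin reductase, rose by 0.24 (adjusted p = 0.0470) but was called in 6 of 16 alternatives, with adjusted p up to 0.686; leaving out any library except PBS replicate 2 ended the call (0.0797 to 0.160).

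**Figure D3:**
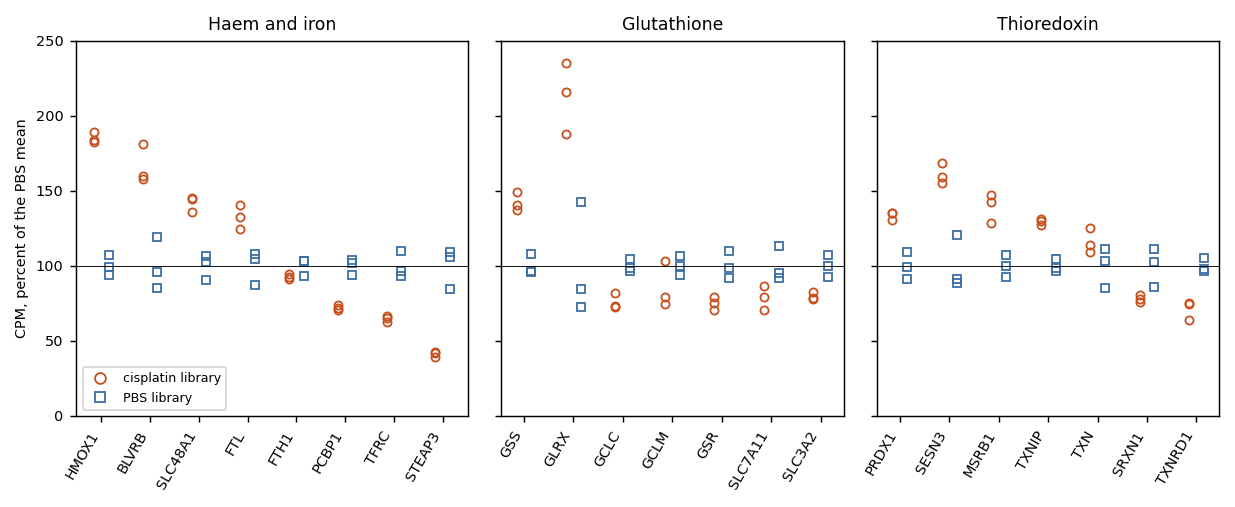
CPM of each library as a percentage of the gene's mean over the 3 PBS libraries, for members and other genes of the haem and iron, glutathione and thioredoxin arms (circles, cisplatin; squares, PBS). HMOX1, BLVRB, SLC48A1 and FTL lie above their PBS libraries while PCBP1, TFRC and STEAP3 lie below, and each of the other panels also holds genes on both sides.

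Among the reductases 5 of 7 rose (71.4% called, beside 38.2% of all genes). AKR1C2 and AKR1C3 did not pass, and the median log2 fold change of the 7 was 0.35. After the length correction 3 were higher and the median was 0.16. AKR1C1 (chromosome 10, 4963253 to 4983283) had 1210, 1202 and 1126 CPM under cisplatin, against 842, 897 and 751 CPM under PBS, a rise of 0.51 ± 0.08 (edgeR adjusted p = 5.7e-04). Its neighbours AKR1C2 and AKR1C3 had log2 fold changes of 0.20 ± 0.08 (adjusted p = 0.0557) and 0.12 ± 0.08 (adjusted p = 0.212). AKR1C2 lay close to the threshold and was called higher in 7 of 16 alternatives, among them DESeq2 (adjusted p = 0.0433) and the fit without PBS replicate 2 (0.25, 0.0246). AKR1C1 made up 46.9%, 46.6% and 48.0% of the summed TPM of the 3 genes under cisplatin and 41.5%, 41.6% and 39.8% under PBS. The 3 are close paralogs, and the quantifier may have divided reads between them, so the split is uncertain. Their sum was 2709, 2598 and 2354 TPM under cisplatin and 2182, 2207 and 2322 TPM under PBS.

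NQO1, which reduces quinones by the transfer of an electron pair (chromosome 16, 69706996 to 69726951), had 723, 674 and 688 CPM under cisplatin, against 534, 552 and 490 CPM under PBS (0.40 ± 0.07, edgeR adjusted p = 0.00129). The carbonyl reductase CBR1 rose by 0.35 ± 0.07, with 93.1, 88.8 and 88.1 CPM under cisplatin, against 70.7, 73.7 and 67.1 CPM under PBS. Aldose reductase AKR1B1 rose by 0.30 ± 0.08, to 172 ± 8.79 CPM under cisplatin, against 139 ± 8.30 CPM under PBS. Neither CBR1 nor AKR1B1 was called after the length correction (adjusted p = 0.0943 and 0.112) or by limma on log2(TPM + 1) (0.341 and 0.174). AKR1B10, on chromosome 7 like AKR1B1, had 14, 18 and 16 counts under cisplatin and 6, 7 and 2 counts under PBS. Its fold of 3.22 had a 95% interval from 1.60 to 6.46 (adjusted p = 0.0131), and leaving out PBS replicate 3 ended the call (1.23 on the log2 scale, adjusted p = 0.0517), as did limma on log2(TPM + 1) (0.0586).

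Of the remaining members, EPHX1, the microsomal epoxide hydrolase (chromosome 1, 225810092 to 225845563), had 315, 318 and 316 CPM under cisplatin, against 230, 219 and 205 CPM under PBS, a rise of 0.54 ± 0.07 (edgeR adjusted p = 1.6e-04). UGDH, which makes the UDP-glucuronate used in glucuronidation (chromosome 4, 39498755 to 39528311), had 19.9, 20.4 and 19.9 CPM under cisplatin, against 31.6, 29.3 and 30.4 CPM under PBS. UGDH fell by 0.60 ± 0.09 (adjusted p = 3.8e-04), and its groups were far apart. OSGIN1, an oxidative stress-induced growth inhibitor, had 45.6, 42.9 and 52.5 CPM under cisplatin, against 41.5, 36.6 and 34.0 CPM under PBS (0.34 ± 0.10, adjusted p = 0.0206). Leaving out PBS replicate 3 (0.28, adjusted p = 0.0797) or cisplatin replicate 3 (0.25, 0.105) ended the call. The length correction (0.27, adjusted p = 0.050034) and limma on log2(TPM + 1) (0.22, 0.185) did not call OSGIN1 either. Pirin, PIR, an iron-binding nuclear protein, had 89.8 ± 3.75 CPM under cisplatin and 81.0 ± 4.24 CPM under PBS (0.15 ± 0.08, adjusted p = 0.143).

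Of 18 other NRF2 targets outside the members, 17 were tested, 6 rose and 2 fell (47.1% called, beside 38.2% of all genes). Their median log2 fold change was 0.25. Correcting for length brought this median to 0.15, with 5 of the targets called up and 1 called down. The glutathione peroxidase GPX2 had 442, 449 and 416 CPM under cisplatin, against 366, 347 and 302 CPM under PBS (0.37 ± 0.08, edgeR adjusted p = 0.00433; 0.15 and 0.103 after the length correction). LRP8, a lipoprotein receptor, fell by 0.96 ± 0.09, to 29.9 ± 0.568 CPM under cisplatin, against 58.2 ± 3.93 CPM under PBS.

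Transcript length moved with the direction of change, among the members and in the whole table. The 13 members that rose had isoform-weighted lengths of 798 to 1915 bases (median 1305), and the 5 that fell had 2200 to 3600 bases (median 2966). Over all genes tested the median was 1775 bases for those that rose and 3557 bases for those that fell, and the log2 fold change dropped by 0.152 per doubling of length. When this trend was removed in each library, HMOX1, GSS, EPHX1, AKR1C1, BLVRB, NQO1, PRDX1, FTL and AKR1B10 were still higher and TXNRD1, GCLC, GSR, SRXN1 and UGDH still lower, with FTH1 lower in addition. TALDO1, AKR1B1, CBR1 and OSGIN1 were no longer called (adjusted p between 0.050034 and 0.218). PRDX1, FTL and NQO1 kept less than their full size, with log2 fold changes of 0.21, 0.18 and 0.24 after the correction, while SESN3 reached 1.03.

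**Figure D4:**
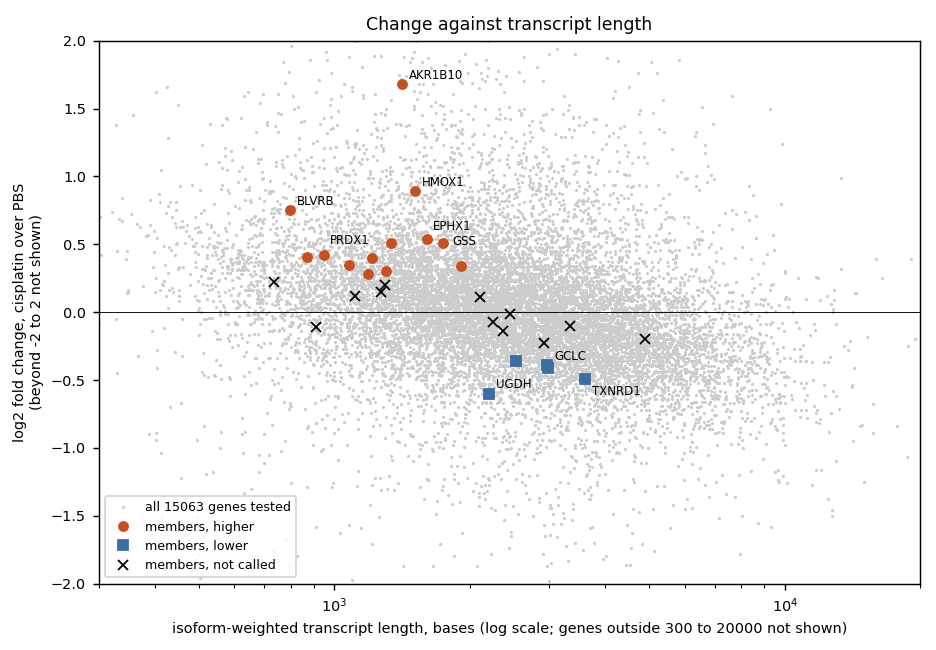
Log2 fold change, cisplatin over PBS, against isoform-weighted transcript length (log axis) for all genes tested (grey) and the 30 members (circles, higher; squares, lower; crosses, not passed). Members that rose reach up to 1915 bases, and members that fell start at 2200 bases.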

How the data were processed

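Per the labels' protocols, total RNA of NCI-H520 cells was extracted with TRIzol and made into libraries with an ABclonal kit. The authors deposited, per the file headers, an RSEM-style table for each library with expected counts, TPM, FPKM and isoform-weighted transcript length per gene. Counts are not normalized, TPM are scaled by length to a fixed total, and the FPKM that the authors deposited were not used. Alignment used STAR 2.7.9 and GRCh38, per the submitters' processing notes. No source used here gives strand use or the annotation release. Whether reads of a gene and its antisense partner were told apart is therefore not known. The values printed for such pairs may share reads.

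Gene symbols were looked up by identifier (61399 of 61552 named) and positions from GENCODE 29. Expected counts were rounded. The test was that of edgeR 4.0.16 under R 4.3.3. Low counts were removed by filterByExpr (minimum 10 and total 15), and libraries were scaled by TMM. The quasi-likelihood test was on group alone, with Benjamini-Hochberg over 15063 genes and a threshold of 0.05. It was also run on simulated counts with few changed genes and no length trend, unlike these data. Standard errors are the log2 fold change over the square root of F. Deviations of log2 CPM from the group mean correlated at 0.0658, 0.123 and -0.076 between same-numbered libraries. Replicate numbers were therefore not taken as pairs. Alternatives were RLE or total count scaling, no filter or 50 counts in 3 libraries, the replicate block, each library left out, mitochondrial genes left out, a length correction (a lowess of each library's deviation on log2 length, as an offset), DESeq2 1.42.0, and limma 3.58.1 as voom or on log2(TPM + 1). The members and lists were chosen with earlier results of these data known. Named were all members and, from each list of other genes, up to 3 called genes per direction, by smallest adjusted p. A gene that this rule names is not reported here. Library totals of 9121180 to 16724269 counts set the precision; no libraries were alike within sampling noise (chi-square per degree of freedom from 2.93 within groups).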

Additional observations from a re-analysis of the deposited data

How the results depend on the processing

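Of the 30 members, 16 kept their call and direction in all 16 alternatives; 12 of these were called, namely GCLC, GSS, GSR, TXNRD1, PRDX1, HMOX1, BLVRB, FTL, NQO1, AKR1C1, EPHX1 and UGDH. Between 9 and 15 members were higher and 5 or 6 lower under every alternative except limma on log2(TPM + 1), with 8 higher and 4 lower. That fit called 2861 genes, against 5752 with edgeR, and 10 other pathway genes higher and 9 lower, against 18 and 20; the cause was not tested. Its median over all genes was -0.0711. Leaving out 1 library left 13 to 18 other pathway genes lower, the fewest without cisplatin replicate 3. KEAP1, at -0.01, was 0.01 with total count scaling and between -0.07 and 0.03 with 1 library left out. The sign also turned for TXN (-0.04), AKR1C3 (-0.06), PIR (-0.01) and SLC7A11 (0.03) after the length correction and for AKR1C3 (-0.02) on log2(TPM + 1). None of these values was called.

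With replicate number as a block, 5819 genes were called and 13 members were higher and 5 lower; BLVRA was no longer called (0.24, adjusted p = 0.0529). The numbers share no pairing in the labels or data. With 3 libraries a group, the changes of GCLM (SE 0.12) and AKR1B10 (SE 0.46, 2 to 18 counts) were measured loosely.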
